A study of Triticum turgidum subsp. durum with 36 samples.

Results

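The later step of monocarpic senescence, from 12 to 22 days after anthesis (DAA), was followed in flag leaves of wild type (WT) tetraploid wheat. The 4 WT libraries of 22 DAA were set against the 4 WT libraries of 12 DAA, out of 36 RNA-seq libraries in the series. A locus was included where 2 or more libraries of a group held over 3 reads, which kept 71492 of the 80168 loci with counts. A locus is a transcribed stretch of a genomic contig, and each contig is assigned to a chromosome arm.

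The flag leaf is the last leaf formed below the ear and the main source of sugars for the grain. When it senesces, the chloroplasts are taken apart, their proteins are cut into amino acids by proteases, and nitrogen, zinc and iron are loaded into the phloem and sent to the grain. Chlorophyll is removed by its own pathway, in which pheophorbide a oxygenase opens the ring. In wheat, lowering the NAC transcription factors GPC1 (also called NAM-1) and GPC2 together delays this programme. The study reports the delay in the field with GPC1 alone knocked out as well.

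The plants were of the durum cultivar Kronos (*Triticum turgidum* subsp. *durum*), whose WT form carries a non-functional *GPC-B1* and functional *GPC-A1*, *GPC-A2* and *GPC-B2* genes. The WT plants were grown in a greenhouse without a chemical treatment and were sister lines of the 2 mutants set beside them further on, *gpc-A1* and *gpc-A1/gpc-B2*, whose chemically induced stop mutations had been backcrossed repeatedly to Kronos. Each library came from 1 flag leaf, taken at 22 DAA, at 12 DAA or at heading date (HD), and the leaves showed no visible loss of chlorophyll at any of these times. Each group had 4 biological replicates. Because a sample is a whole leaf, fewer cells of a kind and less RNA per cell cannot be told apart.

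Total counts ran from 18335083 to 22370880 per library at 22 DAA and from 18581039 to 48981831 at 12 DAA, where replicate 4 was the deepest. The 10 most abundant loci took 3.12 to 5.18% of the counts at 22 DAA, against 5.74 to 6.68% at 12 DAA. The leaf markers fixed for the tissue check were present in all 8 libraries. Loci described as light-harvesting proteins summed to between 107418 and 436725 normalized counts at 22 DAA, against 759287 to 1030282 at 12 DAA. A normalized count is a read count divided by the size factor of its library, so it can be compared between libraries of 1 locus but not between loci.

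Few loci passed the strict rule for differential expression (DE), which asked for significance in edgeR, in DESeq2, in the Mann-Whitney-Wilcoxon test and in the *t*-test of the study's methods. Of the 71492 loci tested, 378 (0.529%) were DE. At 22 DAA 116 loci (0.162%) were higher and 262 (0.366%) were lower than at 12 DAA, so that 30.7% of the DE loci rose. The share depended on single libraries, since 59 of 348 DE loci rose without 22 DAA replicate 1, 39 of 256 (15.2%) without 22 DAA replicate 3 and 29 of 54 (53.7%) without 12 DAA replicate 2. The median log2 fold change over all tested loci was 0.0034. Among the rises the median change was 1.30 on the log2 scale, and 96 were at least 2-fold, 10 at least 4-fold and 3 at least 8-fold. Among the falls the median size was 1.38, and 183 were at least 2-fold, 64 at least 4-fold and 22 at least 8-fold. DE loci lay on both genomes, with 173 of 34171 tested loci (0.506%) on A and 205 of 37321 (0.549%) on B. By chromosome arm the share ran from 0.176% on 1BS to 1.16% on 1BL, where 34 of 2926 loci were DE.

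**Figure D1:**
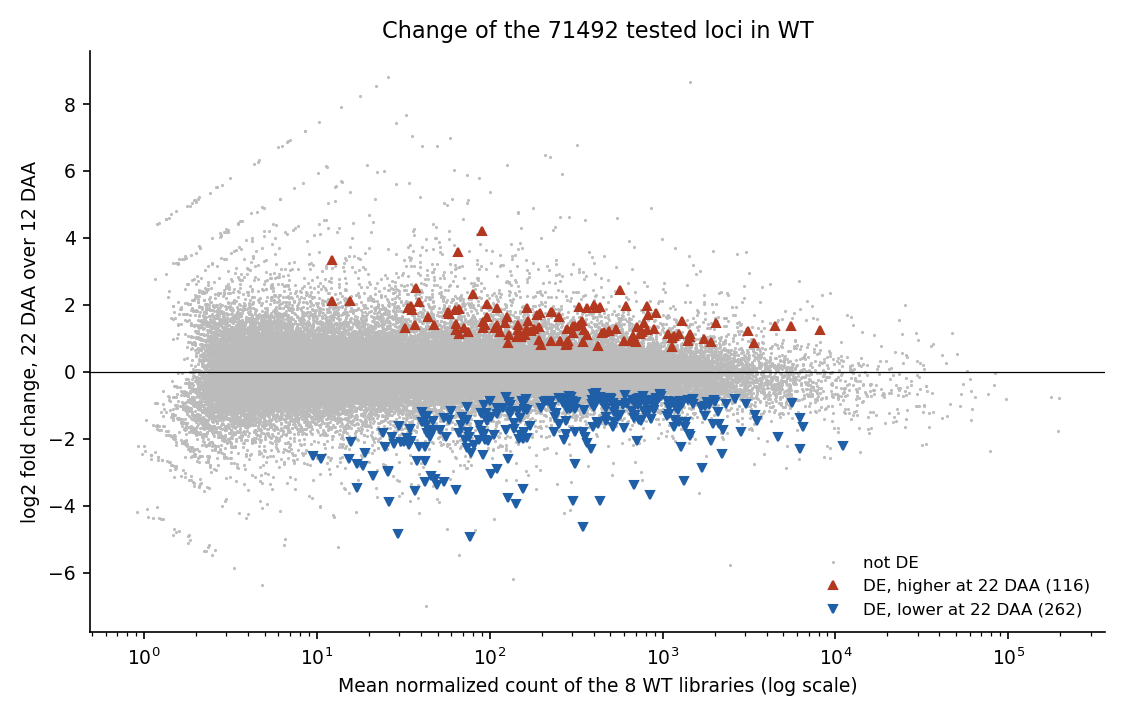
Log2 fold change (22 DAA over 12 DAA) of each of the 71492 tested loci in WT against its mean normalized count over the 8 libraries on a log axis, with DE loci as coloured triangles. The 262 falls reach -4.92 and the 116 rises reach 4.22, and the median of all tested loci is 0.0034.

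The count depended on the tests and on single libraries. edgeR alone called 541 loci (0.757%), 245 higher and 296 lower, and 129 of the rises but 32 of the falls among them failed the *t*-test. With the pooled-variance form of that test 494 loci were DE, 206 higher and 288 lower, which is 41.7% higher. DESeq2 alone called 5433 loci (7.6%), with 2904 (4.06%) higher and 2529 (3.54%) lower. Without 12 DAA replicate 1 or without 12 DAA replicate 3 no locus was DE, without 12 DAA replicate 2 or 4 there were 54 or 42, and without any 1 library of 22 DAA there were 256 to 474. In the 2 fits without 12 DAA replicate 1 or 3 edgeR called none, with a lowest adjusted *P* of 0.013 and 0.0119 by edgeR, 15587 and 15254 loci with an unadjusted *P* under 0.05, and 2702 and 2524 loci called by DESeq2. All 378 loci kept their sign in both, with an edgeR adjusted *P* of 0.05 or less, so each rise or fall named below loses its call without either library but not its direction. The rule already asks for little or no overlap between the groups, so leaving out 1 library could hardly turn a sign. Counting only loci whose 4 libraries at 22 DAA lay all above or all below the 4 of 12 DAA gave 6222 higher (8.7%) and 6358 lower (8.89%).

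The leaves of 22 DAA differed more among themselves than those of 12 DAA. The biological coefficient of variation fitted by edgeR was 0.303 at 22 DAA, against 0.148 at 12 DAA. Over the 35680 loci with a mean of at least 50 normalized counts, the median coefficient of variation was 17.1% at 22 DAA and 12.2% at 12 DAA, and the SD was larger at 22 DAA in 68.4% of them. Replicates 2 and 4 of 22 DAA stood furthest from 12 DAA in the falls. Replicate 2 was the lowest 22 DAA library in 105 of the 262 falls and replicate 4 in 99, against 39 for replicate 3 and 19 for replicate 1. Among the 116 rises replicate 2 was the highest in 75. Over all tested loci each replicate was the lowest in 22.7 to 26.3% and the highest in 21.5 to 28.8%.

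Transcripts of the photosynthetic apparatus had lower means than at 12 DAA at nearly all the loci listed. The function lists hold only loci of the 782 covered by the part of the study's description table held here. These 782 had a median mean of 5853 normalized counts, against 49.7 over all tested loci. Their median log2 fold change was -0.32, and 1.92% were DE, against 0.529% of all tested loci. Shares over all loci thus come from a background with fewer counts. Light-harvesting proteins bind chlorophyll and pass light energy to the photosystems, and all 21 loci so described had lower means at 22 DAA. Their summed level was 436725, 165158, 362188 and 107418 normalized counts at 22 DAA (replicates 1 to 4), against 892059.6, 962169.8, 1030282 and 759287 at 12 DAA. The groups did not overlap, and replicates 2 and 4 of 22 DAA were the lowest. At HD the sums were 1529443, 1710065, 1521253 and 640033, with replicate 4 apart from the others. The median log2 fold change was -1.67, beside 0.0034 over all loci, and 20 of the 21 loci had no overlap between the groups, in a background of 8.89%. Under the 4-test rule 2 fell, beside 0.366% of all loci, and 19 did not pass. DESeq2 alone called 19 lower, beside 3.54% of all loci.

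Both falls were of antenna proteins. The chlorophyll a-b binding locus on 5BL (5BL contig 10831572, 1917 to 3005) had 699, 212, 558 and 160.0 normalized counts at 22 DAA, against 3112, 2474, 3670.2 and 2569.8 at 12 DAA. Its lowest 12 DAA library was above its highest 22 DAA library, and it fell with a log2 fold change of -2.86 (SE 0.43, edgeR adjusted *P* = 0.00805). From HD over 12 DAA to 22 DAA its means were 8511, 2957 and 407 normalized counts. CP24, a minor antenna protein of photosystem II, was DE on 2BL (2BL contig 8019292, 1712 to 3006) with 5591, 2619, 5519.9 and 1981 normalized counts at 22 DAA, against 20366, 17501, 21321 and 13898 at 12 DAA (log2 fold change -2.22, SE 0.34, edgeR adjusted *P* = 0.00841). Replicates 2 and 4 of 22 DAA were the lowest at both loci. The member with the most counts (5BL contig 10804278, 2475 to 3801) had 161788, 42292, 125866 and 26201 normalized counts at 22 DAA, against 271942, 328220.0, 318830.0 and 282829 at 12 DAA and did not pass (log2 fold change -1.76, SE 0.52, edgeR adjusted *P* = 0.0587). The next one (5BL contig 10801870, 11726 to 13032) averaged 25356 ± 20401 at 22 DAA and 131074 ± 27335 at 12 DAA (SD, edgeR adjusted *P* = 0.0366).

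**Figure D2:**
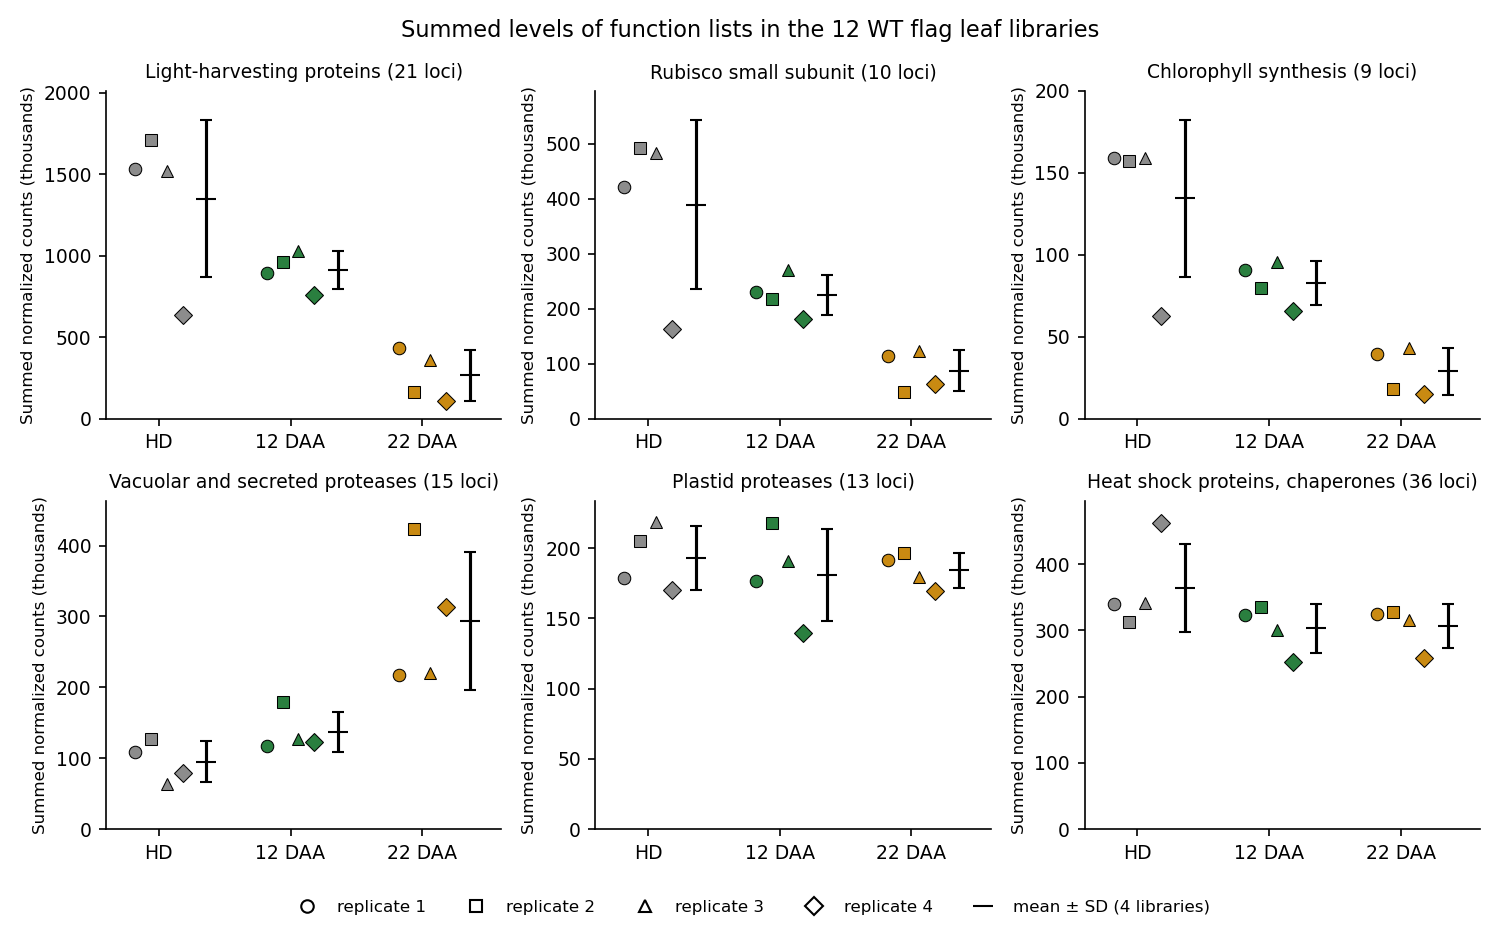
Summed normalized counts (in units of 1000) of 6 lists of loci in the 12 WT libraries by time (HD, 12 DAA, 22 DAA), each marker shape a replicate and the bar the mean ± SD. The light-harvesting, Rubisco small subunit and chlorophyll synthesis sums are lower at 22 DAA than at 12 DAA in every library, the vacuolar and secreted proteases are higher in every library, and plastid proteases and heat shock proteins overlap.

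Transcripts of the reaction centres were also lower. Photosystem I subunits carry the electron transport that reduces ferredoxin, and all 11 loci were lower at 22 DAA without overlap (median log2 fold change -1.24). DESeq2 alone called all 11 lower, while the 4-test rule passed 1, beside 8.89% of all loci lower without overlap, 3.54% called lower by DESeq2 and 0.366% DE and lower. This subunit locus (5AL contig 1127310, 1 to 799) had 2336, 1669, 2207 and 1241 normalized counts at 22 DAA, against 5124, 5149, 5996 and 4377 at 12 DAA, and it fell (log2 fold change -1.48, SE 0.21, edgeR adjusted *P* = 0.00639). The member with the most counts (3B contig 10484319, 1384 to 2702) had 41542, 30057, 31452 and 21329 normalized counts at 22 DAA, against 56183, 75729, 63631 and 47002 at 12 DAA, groups that did not overlap either (log2 fold change -0.97, SE 0.25, edgeR adjusted *P* = 0.0379). The next one (5BL contig 10804947, 13953 to 15327) averaged 21468 ± 4091 at 22 DAA and 43521 ± 6609 at 12 DAA (edgeR adjusted *P* = 0.0188).

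Of 13 loci for photosystem II and the oxygen-evolving complex, which splits water, none was DE, although 11 had no overlap and DESeq2 alone called 10 lower, beside 8.89% and 3.54% of all loci (median -1.03). The overlapping loci, both for the 10 kDa protein of photosystem II, were 1 on 6BL and 1 on 6AL (6AL contig 5835027, log2 fold change -0.28, named after its values were seen). That on 6BL (6BL contig 3720037, 515 to 1957) had 79405, 37739, 34191 and 13768 normalized counts at 22 DAA, against 59976, 53781, 67392 and 81235 at 12 DAA, so that only 12 DAA replicate 4 exceeded 22 DAA replicate 1 (log2 fold change -0.68, SE 0.43, edgeR adjusted *P* = 0.345). Another 6AL locus for the same protein (6AL contig 5826587, 5082 to 7977) averaged 48959 ± 8932 at 22 DAA and 72452 ± 6836 at 12 DAA without overlap (edgeR adjusted *P* = 0.102). Among 14 electron carriers (plastocyanin, ferredoxin, ferredoxin-NADP reductase, cytochrome b6-f subunits and PGR5 proteins) all means were lower, 8 without overlap beside 8.89% of all loci, and none was DE (median -0.66). The plastocyanin locus (4AL contig 7148983, 2885 to 4214), whose protein carries electrons to photosystem I, averaged 14279 ± 4278 at 22 DAA and 30939 ± 5206 at 12 DAA (edgeR adjusted *P* = 0.023). Ferredoxin-NADP reductase (6AS contig 4385865, 17766 to 22787), which hands the electrons on to NADP, averaged 22016 ± 2216 at 22 DAA and 30199.9 ± 4899.6 at 12 DAA with overlap (edgeR adjusted *P* = 0.13).

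Carbon fixation gave a like picture with fewer calls. The nuclear-encoded small subunit of Rubisco, the enzyme that fixes CO2, had 10 loci, all of them lower without overlap (median log2 fold change -1.37). Their sum was 113878, 48911, 123834 and 64140.0 normalized counts at 22 DAA, against 230348, 218455, 269911 and 181285 at 12 DAA. None passed the 4 tests, and DESeq2 alone called 9 lower. Over all loci 8.89% were lower without overlap and DESeq2 called 3.54% lower. The small subunit locus with the most counts (5AL contig 2786358, 1947 to 6596) had 41412, 17045, 48751 and 24745 normalized counts at 22 DAA, against 89622, 86969.7, 104494 and 74686 at 12 DAA (log2 fold change -1.43, SE 0.32, edgeR adjusted *P* = 0.0264). The next one, also on 5AL (5AL contig 2799832, 1371 to 2762), averaged 25471 ± 11889.9 at 22 DAA and 62842 ± 8531 at 12 DAA (edgeR adjusted *P* = 0.0368). The large subunit is encoded in the chloroplast and was not analysed here.

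Rubisco activase, which frees the active site of Rubisco, overlapped between the times. At the locus with the most counts (4BS contig 4910205, 10201 to 12695) the counts were 227992, 101376, 175616 and 73481 at 22 DAA, against 253952, 254699, 278043 and 201247 at 12 DAA, so that replicate 1 of 22 DAA lay inside the range of 12 DAA (log2 fold change -0.78, SE 0.36, edgeR adjusted *P* = 0.194). The 4AL locus (4AL contig 3709155, 972 to 3382) averaged 131533 ± 64414 at 22 DAA and 222367 ± 35396 at 12 DAA (edgeR adjusted *P* = 0.206). All 4 activase loci had lower means, and none was without overlap (median -0.73). Calvin cycle enzymes regenerate the acceptor of CO2, and 19 of 20 loci had lower means, 10 without overlap beside 8.89% of all loci, with none DE (median -0.72). The 2 with the most counts were both described as a chloroplast fructose-bisphosphate enzyme, with the rest of the name cut off, on 5BS (log2 fold change -0.66, SE 0.29, edgeR adjusted *P* = 0.18) and 4AL (log2 fold change -1.02, SE 0.35, edgeR adjusted *P* = 0.094). The 17 loci for ribosomal proteins and elongation factors of the plastid, which translate its own genome, were all lower on average (median -0.66, 9 without overlap beside 8.89% of all loci, none DE). The elongation factor loci with the most counts had log2 fold changes of -0.49 on 6AL and -0.60 on 2AL, both with overlap.

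In photorespiration, the pathway that salvages the product of Rubisco's reaction with oxygen, 16 of 19 loci had lower means, 3 without overlap beside 8.89% of all loci, and none was DE (median -0.51). The member with the most counts, serine hydroxymethyltransferase on 4AL (4AL contig 7175679, 3639 to 8613), had 92699, 60133, 75956 and 52244 normalized counts at 22 DAA, against 127522, 125157, 136371 and 104656 at 12 DAA (log2 fold change -0.82, SE 0.24, edgeR adjusted *P* = 0.0592). Peroxisomal glycolate oxidase GLO1 (5BL contig 10902941, 15605 to 21329) overlapped (log2 fold change -0.40, edgeR adjusted *P* = 0.252). Antioxidant enzymes remove hydrogen peroxide and related oxidants, and they split: 16 of 21 means were lower, 7 without overlap, and 5 higher, 1 without overlap, beside 8.89% and 8.7% of all loci (median -0.27). DESeq2 alone called 4 lower and 1 higher, beside 3.54% and 4.06% of all loci. A locus described as chloroplast ascorbate peroxidase (6BL contig 4266248, 1 to 3197) was the only member of the 21 to fall under the 4-test rule (0.366% of all loci), with 1744, 917, 1244 and 1184 normalized counts at 22 DAA, against 4821, 4140.5, 5194 and 3451 at 12 DAA (log2 fold change -1.79, SE 0.21, edgeR adjusted *P* = 0.00418). Catalase isozyme 2 (6AS contig 4376419, 3350 to 6368) went the other way without overlap, with 46039, 76043, 78316 and 59162 normalized counts at 22 DAA, against 23327, 36845, 23518 and 32844 at 12 DAA, and did not pass (log2 fold change 1.15, SE 0.25, edgeR adjusted *P* = 0.0233). The catalase 1 locus with the most counts (4BL contig 7032852, 1 to 1037) overlapped between the times (log2 fold change -0.36, edgeR adjusted *P* = 0.468).

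**Figure D3:**
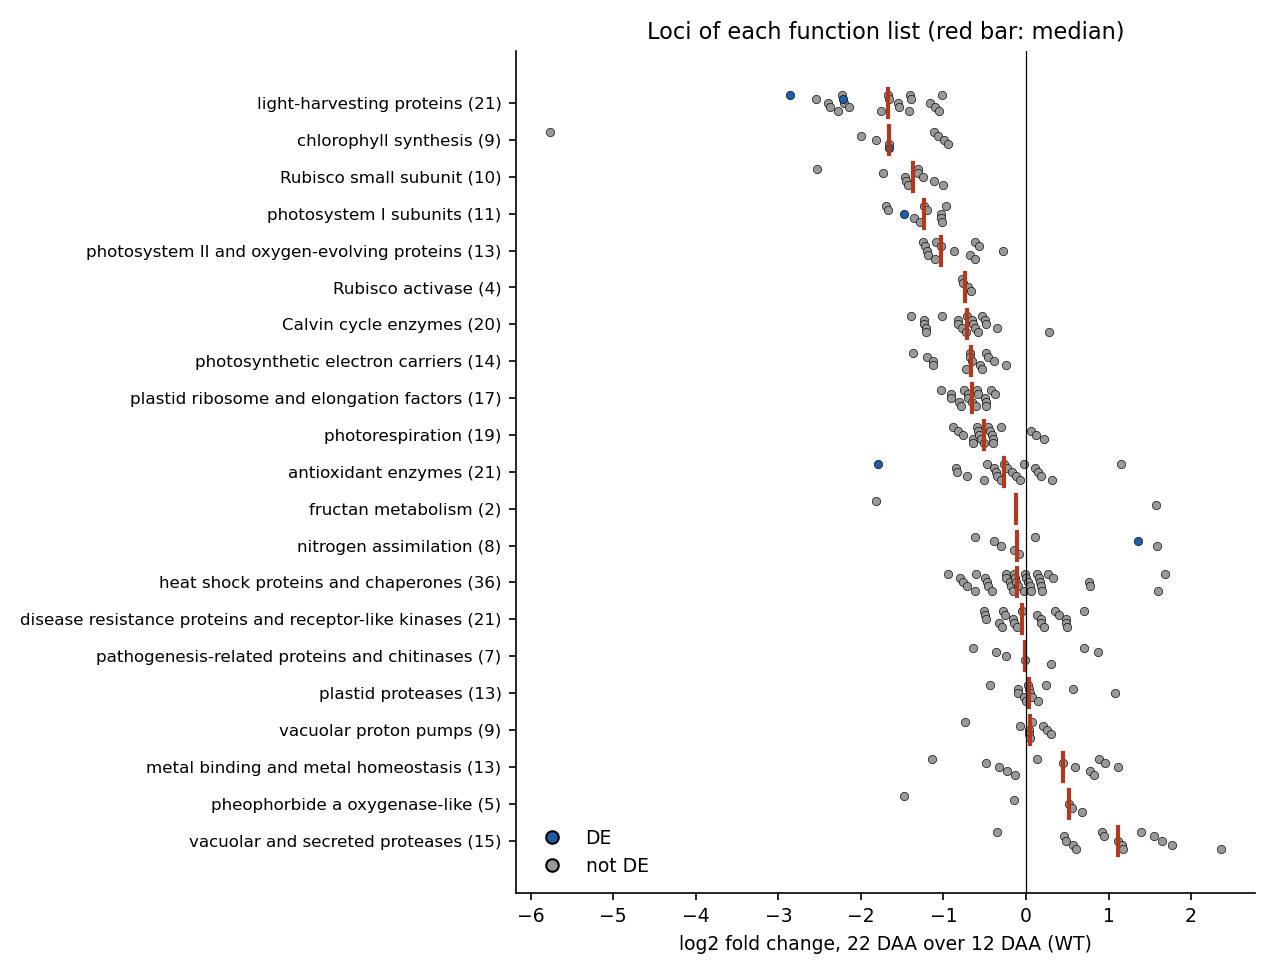
Log2 fold change (22 DAA over 12 DAA in WT) of every locus of the 21 function lists, 1 point a locus, blue where DE, with a red bar at the median and the number of loci in brackets. The photosynthesis lists lie to the left of 0, with the light-harvesting median at -1.67, and the vacuolar and secreted proteases to the right with a median of 1.12.

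Transcripts for chlorophyll synthesis were lower throughout the list. All 9 loci were lower at 22 DAA without overlap, the median log2 fold change was -1.66, DESeq2 alone called all 9, and 1 passed the 4 tests, beside 8.89%, 3.54% and 0.366% of all loci. The DE locus was glutamyl tRNA reductase on 1BL (1BL contig 3792355, 1 to 3151), the first committed enzyme of the pathway, with 3684, 2392, 4414 and 2049 normalized counts at 22 DAA, against 10630.0, 8632, 10439 and 9648 at 12 DAA (log2 fold change -1.66, SE 0.24, edgeR adjusted *P* = 0.0073). The Mg-chelatase subunit, which inserts magnesium, had the most counts on 2BS (2BS contig 5231013, 12845 to 20601) with 9686, 2539, 11827 and 2318 normalized counts at 22 DAA, against 22749, 20814, 24976 and 14982 at 12 DAA (log2 fold change -1.67, SE 0.50, edgeR adjusted *P* = 0.0623). Its 2AS copy (2AS contig 5165956, 1 to 6138) averaged 4614 ± 3172 at 22 DAA and 16183 ± 2856 at 12 DAA (edgeR adjusted *P* = 0.0362). Replicates 2 and 4 of 22 DAA were the low ones at the reductase and at both chelatase loci. Protochlorophyllide reductase A (2BL contig 7951021, 10929 to 19547), singled out after its values were seen, had 174, 46.4, 99.8 and 36.3 normalized counts at 22 DAA, against 7396, 2134, 5744 and 4139 at 12 DAA. Its log2 fold change of -5.77 (SE 0.57, edgeR adjusted *P* = 0.00276) was the largest of the list, and it was not DE because it missed the *t*-test. From HD over 12 DAA to 22 DAA its means were 19808, 4854 and 89.1 normalized counts.

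Transcripts for chlorophyll breakdown were mixed. Of 5 loci described as pheophorbide a oxygenase or like it, 3 had higher and 2 lower means at 22 DAA (median 0.52). Without overlap 2 were higher and 1 lower, beside 8.7% and 8.89% of all loci. DESeq2 alone called 2 higher and 1 lower, beside 4.06% and 3.54% of all loci. None was DE, beside 0.529% of all loci. The locus on 4BL (4BL contig 6887705, 1 to 1034) had 10057, 10685, 9601 and 8198 normalized counts at 22 DAA, against 6178, 7219.5, 6339.6 and 6252 at 12 DAA, without overlap (log2 fold change 0.56, SE 0.14, edgeR adjusted *P* = 0.0368). The locus on 2BS (2BS contig 5188378, 4857 to 11524), described only as like the oxygenase, had 15309, 11514, 13996 and 6399.9 normalized counts at 22 DAA, against 32145, 32360.5, 40004 and 26863 at 12 DAA, lower without overlap (log2 fold change -1.48, SE 0.27, edgeR adjusted *P* = 0.0137). Genes of this name form a small family, and the description does not say which members act on chlorophyll.

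Proteases of the vacuole and the secretory pathway, which degrade leaf proteins in senescence, had the highest median of the 21 lists. Of 15 loci 14 had higher means at 22 DAA, 8 of them without overlap, beside 8.7% of all loci (median log2 fold change 1.12). Their sum was 217879, 423179, 220727 and 313222 normalized counts at 22 DAA, against 117496, 179912, 127810.4 and 123152 at 12 DAA. Replicates 2 and 4 of 22 DAA were the highest, and they were also the lowest in the light-harvesting sum. None of the 15 passed the 4 tests (background 0.162% higher), whereas DESeq2 alone called 12 higher, beside 4.06% of all loci. Leaving out 12 DAA replicate 2, the highest of its group, can only raise this number, and gave 13, beside 12% of all loci.

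Cysteine proteinase 1 on 2AL (2AL contig 6315374, 6012 to 9120) had the most counts of the list, and after it came its namesake on 5BL. The 2AL locus had 35023, 48111, 30878 and 45100.3 normalized counts at 22 DAA, against 16101, 31289.7, 18945 and 15920.5 at 12 DAA (log2 fold change 0.94, SE 0.26, edgeR adjusted *P* = 0.0487), and the groups overlapped only through 12 DAA replicate 2. On 5BL (5BL contig 10856132, 6279 to 9377) the counts were 24550.3, 60766, 30715 and 46116 at 22 DAA, against 16606, 20850.4, 15982 and 18501 at 12 DAA (log2 fold change 1.16, SE 0.28, edgeR adjusted *P* = 0.0304). The oryzain alpha chain on 2AL (2AL contig 6390523, 5899 to 9738), a papain-like protease and the locus with the largest change of the list, was named after its values were seen. It had 6577, 33935, 7162 and 15075 normalized counts at 22 DAA, against 2578, 4015, 2543 and 2920.4 at 12 DAA (log2 fold change 2.37, SE 0.48, edgeR adjusted *P* = 0.0192), and its replicate 2 of 22 DAA was far above the others.

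Plastid proteases (FtsH, Clp and presequence proteases), which turn over proteins inside the chloroplast, did not show the pattern: 9 of 13 means were higher and 4 lower, with a median of 0.04, 1 higher and 1 lower without overlap, beside 8.7% and 8.89% of all loci, and none DE. The member with the most counts, an FtsH locus on 7AL (7AL contig 4555942, 650 to 4092), averaged 58099 ± 5154 at 22 DAA and 56887 ± 13357 at 12 DAA (edgeR adjusted *P* = 0.962). A further FtsH locus on 7AL had a log2 fold change of -0.10 (edgeR adjusted *P* = 0.765). Both ranges of 22 DAA overlapped those of 12 DAA.

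Glutamine synthetase of the cytosol, which makes the amide in which nitrogen leaves a senescing leaf, was higher at both of its loci and rose at 1 of them, in a nitrogen list with 3 higher and 5 lower means of 8 (median -0.11), beside 0.162% of all loci DE and higher. The GS1b locus on 6AL (6AL contig 5820788, 1 to 3239) had 5847, 8334, 6390.4 and 5269 normalized counts at 22 DAA, against 2617, 3034, 2174 and 2209.6 at 12 DAA, with every library of 22 DAA above every library of 12 DAA (log2 fold change 1.36, SE 0.18, edgeR adjusted *P* = 0.0055). From HD over 12 DAA to 22 DAA its means were 1618, 2509 and 6460.2 normalized counts. Another cytosolic locus on 6BL (6BL contig 227297, 1 to 2805), named after its values were seen, had 9933, 17514, 9001 and 8089 normalized counts at 22 DAA, against 3748, 4659, 2928 and 3313 at 12 DAA (log2 fold change 1.59, SE 0.26, edgeR adjusted *P* = 0.0103), which is above the threshold of 0.01. The other 6 nitrogen loci did not pass. Ferredoxin-dependent glutamate synthase on 2AS, which works with the chloroplast form, had a log2 fold change of -0.14 (edgeR adjusted *P* = 0.688), and alanine aminotransferase 2 on 2BL one of -0.62 (edgeR adjusted *P* = 0.0858).

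Fructans are the soluble reserve carbohydrate of wheat leaves and stems, and the 2 loci measured lay on opposite sides of 0. Sucrose:fructan 6-fructosyltransferase (4AL contig 7149029, 7315 to 11098), which builds fructans, had 10100.1, 927, 13642 and 3096 normalized counts at 22 DAA, against 25543, 24498, 25484 and 22182 at 12 DAA. All 4 libraries of 22 DAA were lower, replicate 2 the most (log2 fold change -1.82, SE 0.63, edgeR adjusted *P* = 0.0949). Fructan 1-exohydrolase w2 (6AS contig 4429358, 13735 to 18681), which degrades fructans, had 10685, 17403, 6984 and 12223 normalized counts at 22 DAA, against 3480.0, 5591, 3422 and 3224 at 12 DAA, all 4 higher (log2 fold change 1.58, SE 0.28, edgeR adjusted *P* = 0.0132). Neither was DE.

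Metal transport was examined at 71 loci of 43 genes for transporters of zinc and iron and for enzymes that make the metal chelators nicotianamine and phytosiderophores. Of these, 68 were located through the gene's chromosome arm and its WT level, which had to lie within 1 count of the study's own table at all 3 times with at least 1 time at 50 or more, and 3 through a printed identifier. They are given by gene name and arm. The normalized counts printed below are scaled on the 8 libraries of this comparison and differ from the values of that table. The 71 loci split evenly, with 35 higher and 36 lower means and a median of -0.02. Under the 4-test rule 2 rose and none fell, beside 0.162% and 0.366% of all loci. Without overlap 14 were higher and 8 lower, beside 8.7% and 8.89%. Among the 14, *TaYSL13* on 2AL and *TaYSL13-like* on 2BL were admitted through their level at 22 DAA alone.

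Both rises were *TaHMA2*, whose rice and barley relatives move zinc out of the cell towards the vascular tissue. The 7AL locus had 1268, 1455, 1049.6 and 1264 normalized counts at 22 DAA, against 356, 547, 310.2 and 326 at 12 DAA (log2 fold change 1.70, SE 0.19, edgeR adjusted *P* = 0.00415). Its 7BL homoeolog had 1458, 1729, 923 and 1515 normalized counts at 22 DAA, against 382, 549, 363 and 374 at 12 DAA (log2 fold change 1.74, SE 0.21, edgeR adjusted *P* = 0.00427). In both, every 22 DAA library exceeded every 12 DAA library, and in both replicate 3 was the lowest of 22 DAA. From HD over 12 DAA to 22 DAA the means were 147, 385 and 1259 on 7AL and 217, 417 and 1406 on 7BL. *TaHMA2-like* on 7AL was also higher without overlap, with 209.5, 214, 145 and 308 normalized counts at 22 DAA, against 80.2, 126, 69.97 and 75.9 at 12 DAA, but did not pass (log2 fold change 1.31, SE 0.25, edgeR adjusted *P* = 0.0161). The *TaHMA1* loci, relatives of a chloroplast envelope pump of *Arabidopsis*, had log2 fold changes of -0.02 and -0.05.

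**Figure D4:**
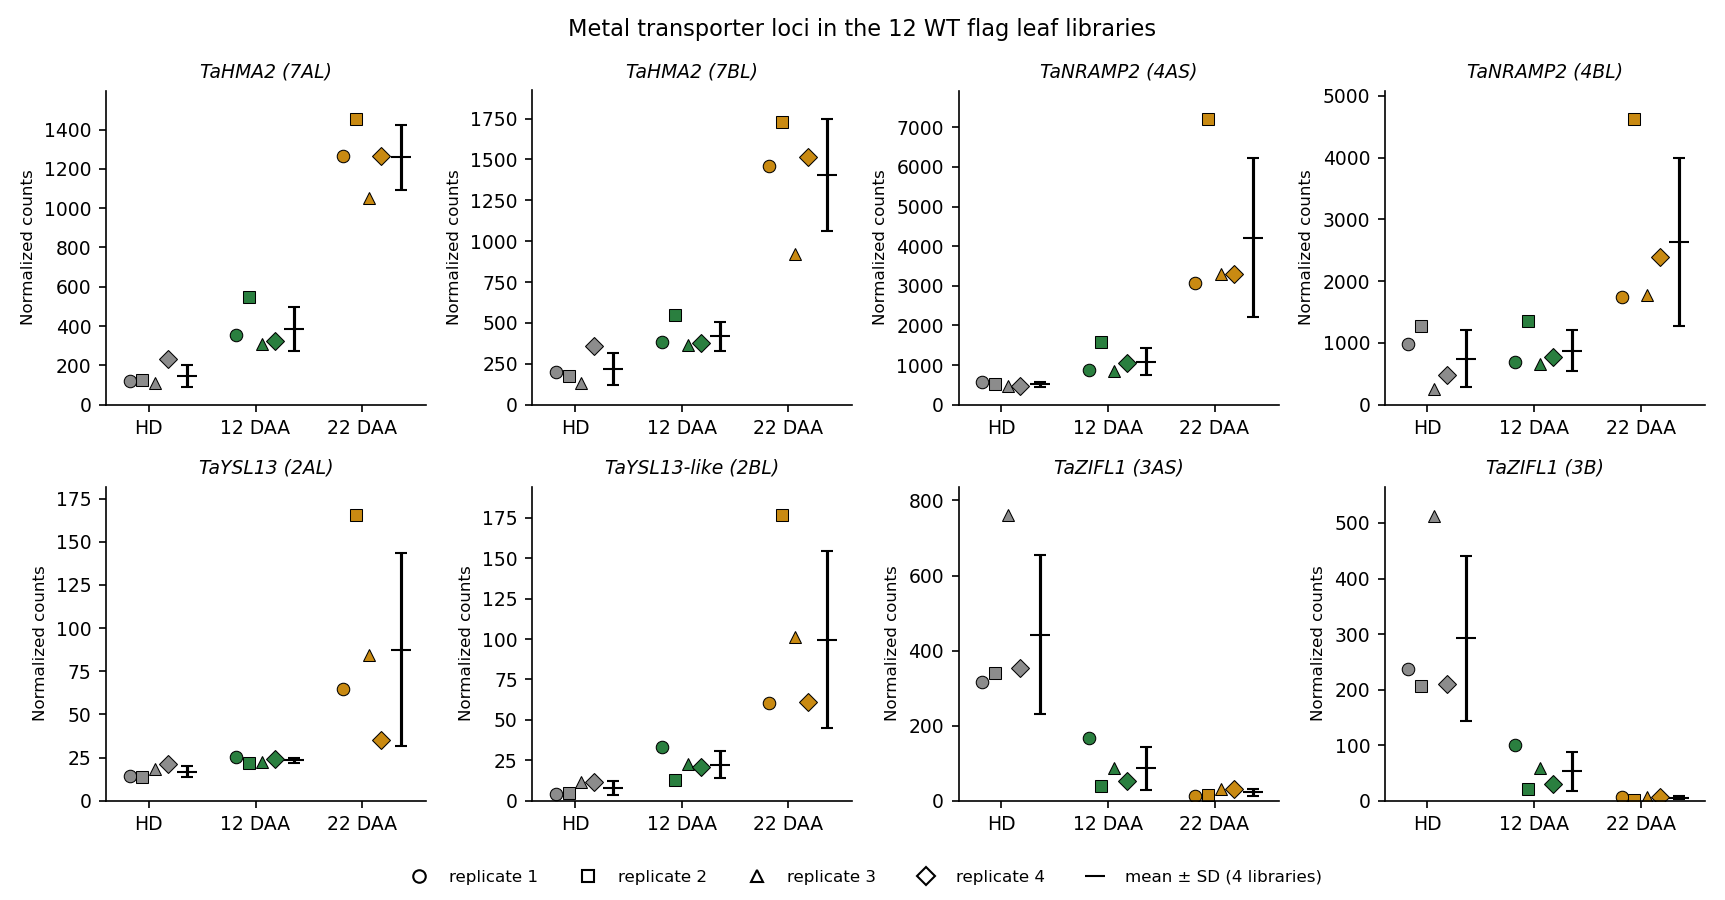
Normalized counts of 8 metal transporter loci in the 12 WT libraries by time (HD, 12 DAA, 22 DAA), each marker shape a replicate and the bar the mean ± SD. Both *TaHMA2* loci stand higher at 22 DAA in all 4 libraries, 22 DAA replicate 2 lies far above the others in *TaNRAMP2*, and *TaZIFL1* is lowest at 22 DAA.

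Several loci with larger changes missed the rule. NRAMP proteins carry iron and other divalent metals, and *TaNRAMP2* on 4AS had 3062, 7213, 3292 and 3287 normalized counts at 22 DAA, against 879, 1577, 854 and 1041 at 12 DAA. All 4 were above 12 DAA, yet 22 DAA replicate 2 stood far above the other 3, and the locus passed edgeR but missed the *t*-test (log2 fold change 1.94, SE 0.31, edgeR adjusted *P* = 0.00991). Its 4BL copy had 1737, 4627, 1771 and 2389 normalized counts at 22 DAA, against 693, 1363, 657 and 773 at 12 DAA (log2 fold change 1.58, SE 0.34, edgeR adjusted *P* = 0.0233). The other 4 NRAMP loci, *TaNRAMP3* and *TaNRAMP7*, had log2 fold changes from -0.71 to 0.22. YSL proteins take up metals bound to nicotianamine. Of 15 YSL loci 10 had higher means, 5 without overlap, against 1 lower without overlap, beside 8.7% and 8.89% of all loci (median 0.59). The tally partly rests on the rule of admission, since *TaYSL13* on 2AL and *TaYSL13-like* on 2BL reached the required level only at 22 DAA. Both were higher without overlap, and YSL copies low at every time were not admitted. *TaYSL13* on 2AL had 64.6, 166, 84.2 and 35.2 normalized counts at 22 DAA, against 25.2, 21.9, 22.4 and 23.96 at 12 DAA (log2 fold change 1.89, SE 0.40, edgeR adjusted *P* = 0.0221). *TaYSL13-like* on 2BL had 60.5, 177, 101 and 60.8 normalized counts at 22 DAA, against 33.2, 12.5, 22.4 and 20.9 at 12 DAA (log2 fold change 2.16, SE 0.39, edgeR adjusted *P* = 0.0139).

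ZIFL transporters, whose relatives export zinc chelators or load the vacuole with zinc, had lower means at 8 of 10 loci (median -0.57). *TaZIFL1* on 3AS had 13.6, 13.8, 30.1 and 30.9 normalized counts at 22 DAA, against 166, 38.6, 87.1 and 51.9 at 12 DAA (log2 fold change -1.95, SE 0.48, edgeR adjusted *P* = 0.0337). Its 3B copy, named after its values were seen because its mean was under 50 counts, had 7.30, 1.97, 6.01 and 6.40 normalized counts at 22 DAA, against 99.6, 21.9, 59.4 and 29.7 at 12 DAA (log2 fold change -3.24, SE 0.56, edgeR adjusted *P* = 0.0124). At both copies every 22 DAA library was below every 12 DAA library, and the spread within 12 DAA was wide. ZIP transporters, the main zinc importers, gave 11 higher and 11 lower means of 22 (median 0.0085) and no DE locus, beside 0.529% of all loci. Vacuolar iron transporters of the VIT family had lower means at all 3 loci, with log2 fold changes of -0.19 to -0.34 and with overlap. Of the chelator genes, *TaNAS3* (nicotianamine synthase) had log2 fold changes of 0.72 and 0.59, *TaDMAS1* of 0.35, and the 3 *TaNAAT* loci of -0.07 to 0.39, none past the tests.

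The A and B copies of 1 gene mostly lay on the same side of 0. Of 28 homoeolog pairs among the metal loci 22 had the same sign, the median difference between copies was 0.27 on the log2 scale, and the largest was 1.30 in *TaYSL12*. There, at loci picked for that difference, the 2AL copy had 1333, 2110.4, 2032 and 1008 normalized counts at 22 DAA, against 926, 624, 885 and 856 at 12 DAA, and the 2BL copy had 508, 719, 457 and 434 normalized counts at 22 DAA, against 739, 655, 656 and 593 at 12 DAA. Homoeologs are near-identical and reads that fitted both were discarded, so each copy is measured only where it differs.

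Metal-binding proteins were the other part of metal handling. Of 13 loci (metallothioneins, ferritin, ferric reductase and others, 3 of them also among the 71) 8 had higher and 5 lower means, 4 higher and 2 lower without overlap, beside 8.7% and 8.89% of all loci, and none DE (median 0.45). Metallothioneins are small cysteine-rich proteins that bind zinc and copper. The locus with the most counts, on 4BS, (4BS contig 4861976, 6480 to 7581) had 40124, 53004, 47108 and 48613 normalized counts at 22 DAA, against 28714, 32061, 19392 and 25454 at 12 DAA (log2 fold change 0.83, SE 0.21, edgeR adjusted *P* = 0.0345). On 4AL (4AL contig 7115854, 2051 to 2904) the counts were 40685, 50201, 51184 and 38722 at 22 DAA, against 30507, 28363, 20149 and 25572 at 12 DAA (log2 fold change 0.78, SE 0.20, edgeR adjusted *P* = 0.0382). The ferric reductase *TaFRO1*, thought to reduce iron at the chloroplast, had lower means without overlap at both copies, with log2 fold changes of -0.49 on 2AL and -1.14 on 2BL (edgeR adjusted *P* = 0.0301).

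Of the *GPC* genes themselves 2 loci were examined here, and *GPC-B2* was not among them. *GPC-A2*, on 2AS, had 574, 433, 525 and 554 normalized counts at 22 DAA, against 325, 379.5, 330.1 and 406 at 12 DAA. Every 22 DAA library was above every 12 DAA library, with means of 522 ± 62.4 at 22 DAA and 360.3 ± 39.3 at 12 DAA (SD, n = 4 each, two-sided exact permutation *P* = 0.0286, the smallest that 70 divisions allow). Within the 4 pairs of the same replicate number the exact permutation *P* was 0.125, the smallest that 4 pairs allow. Across all loci its log2 fold change of 0.52 (SE 0.13, edgeR adjusted *P* = 0.038) did not pass. The locus on 6AS described as *NAM-B1* (6AS contig 4397602, 15266 to 17686) had 6037, 5666, 6185 and 6589.8 normalized counts at 22 DAA, against 4663, 6865, 4436 and 4604 at 12 DAA. The arm is of the A genome while the description names the B copy, and which *NAM-1* copy these reads come from was not tested. In this locus 12 DAA replicate 2 was above all 4 libraries of 22 DAA (means 6119 ± 382 at 22 DAA and 5142 ± 1153 at 12 DAA, n = 4 each, exact permutation *P* = 0.143). Most of the increase of both loci had come before: from HD over 12 DAA to 22 DAA the means were 27.5, 360.3 and 522 for *GPC-A2* and 818, 5142 and 6119 for the 6AS locus.

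The largest DE changes were at loci without a description. The highest rise was on 1AL (1AL contig 3905522, 1 to 748), with 219, 162, 191 and 118 normalized counts at 22 DAA, against 14.9, 12.5, 0 and 8.43 at 12 DAA (log2 fold change 4.22, SE 0.45, edgeR adjusted *P* = 0.00351). The next was on 1BL (1BL contig 3868625, 11820 to 13079), with 118, 143, 154 and 68.3 normalized counts at 22 DAA, against 10.3, 12.5, 7.92 and 8.87 at 12 DAA (log2 fold change 3.59, SE 0.29, edgeR adjusted *P* = 0.00179). Both were low in every library of 12 DAA, and all 4 libraries of 22 DAA were high. The locus on 5BL (5BL contig 10902656, 3822 to 10703) was measured with more reads and had 987, 763, 964 and 1144 normalized counts at 22 DAA, against 117, 300.3, 161 and 125 at 12 DAA (log2 fold change 2.45, SE 0.29, edgeR adjusted *P* = 0.00415). From HD over 12 DAA to 22 DAA its means were 32.1, 176 and 965 normalized counts. The other 2 of the 5 largest rises were on 2BL (2BL contig 8031006, 74 to 3991, log2 fold change 2.50) and 5AL (5AL contig 2752881, 3905 to 5206, 2.32).

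The largest fall was on 7AS (7AS contig 4177015, 1 to 618), with 9.38, 0, 6.01 and 4.27 normalized counts at 22 DAA, against 188, 157, 128 and 126 at 12 DAA (log2 fold change -4.92, SE 0.45, edgeR adjusted *P* = 0.00197). On 6AL (6AL contig 5722309, 15 to 249) the counts were 1.04, 0.986, 3.61 and 2.13 at 22 DAA, against 56.1, 34.4, 67.3 and 70.99 at 12 DAA (log2 fold change -4.86, SE 0.41, edgeR adjusted *P* = 0.00179). From HD over 12 DAA to 22 DAA its means were 849.9, 57.2 and 1.94 normalized counts. The locus on 1BL (1BL contig 3886145, 9550 to 10564) had 44.8, 6.90, 50.5 and 5.33 normalized counts at 22 DAA, against 715, 465, 751 and 718 at 12 DAA (log2 fold change -4.65, SE 0.54, edgeR adjusted *P* = 0.00415), and the low replicates 2 and 4 recur here. The other 2 of the 5 largest falls were on 4AL (4AL contig 7131986, 449 to 914, log2 fold change -3.94) and 5BL (5BL contig 10903386, 710 to 2147, -3.85). Blocking on the replicate number took the 4AL locus (log2 fold change -4.18, edgeR adjusted *P* = 0.0127) out of the calls.

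The part of the study's description table held here covered 782 of the tested loci, mostly with many counts, and 15 of them (1.92%) were DE, 3 higher and 12 lower, against 0.529% of all tested loci, 0.162% higher and 0.366% lower. Beside GS1b the rises were a locus described as a hypersensitive response protein on 4BL (4BL contig 6973512, 3778 to 8889), with 7196, 10153, 7456 and 7274 normalized counts at 22 DAA, against 2930.3, 3826, 2456 and 3082 at 12 DAA (log2 fold change 1.37, SE 0.18, edgeR adjusted *P* = 0.00544), and an uncharacterised protein on 7AL (7AL contig 4512574, 3059 to 8685), with 12069, 14610.3, 8599 and 11077 normalized counts at 22 DAA, against 4438, 6207, 4560.0 and 4026 at 12 DAA (log2 fold change 1.26, SE 0.20, edgeR adjusted *P* = 0.00991). A 29 kDa protein of the thylakoid lumen (2AL contig 6330236, 2197 to 5332) fell, with 1043, 430.0, 944 and 313 normalized counts at 22 DAA, against 4408, 3249, 4487 and 2758 at 12 DAA (log2 fold change -2.45, SE 0.37, edgeR adjusted *P* = 0.00812). So did a membrane protein on 2AL (2AL contig 6363708, 6428 to 7130, log2 fold change -2.32, SE 0.37, edgeR adjusted *P* = 0.00993) that missed the rule with the replicate block (edgeR adjusted *P* = 0.0105), and a locus on 6BL described by its interaction with a viral protein (6BL contig 4207479, 1 to 2282, log2 fold change -1.95, SE 0.24, edgeR adjusted *P* = 0.00458). The remaining 4 falls, named after their values were seen, were a seed imbibition protein on 3B (log2 fold change -1.38), lactoylglutathione lyase on 5AL (-1.30), a 31 kDa chloroplast protein on 5AL (-0.92) and a glucose-6-phosphate 1-epimerase on 5BL (-0.80).

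Lists that would show stress, infection or protein damage had medians near 0, beside -0.32 over the 782 loci of the description table. Over all loci 0.529% were DE, so lists this short could hold none by that share alone. Of 36 heat shock proteins and chaperones none was DE (median -0.11, 4 higher and 3 lower without overlap), with 8.7% and 8.89% of all loci higher and lower without overlap. Their sum was 324788, 327089, 315888 and 257721 normalized counts at 22 DAA, against 323419, 335806, 300609 and 252557 at 12 DAA. A chloroplast chaperone on 5BS (5BS contig 504662, 1 to 1919) had 17518, 32876, 18474 and 23991 normalized counts at 22 DAA, against 13377, 16222, 13297 and 10815 at 12 DAA (log2 fold change 0.78, SE 0.23, edgeR adjusted *P* = 0.0575), and the cytosolic HSC70 locus with the most counts had a log2 fold change of 0.19 (edgeR adjusted *P* = 0.53). Of 7 pathogenesis-related proteins and chitinases, which are made against fungi, none was DE (median -0.01), and their sum ran from 24616 to 73534 at 22 DAA and from 33343 to 56749.7 at 12 DAA. Chitinase 8 (5BL contig 10842474, 6810 to 8366) was higher without overlap, with 10848, 14076, 19247 and 11423 normalized counts at 22 DAA, against 9117, 6577, 6289 and 8141 at 12 DAA (log2 fold change 0.88, SE 0.22, edgeR adjusted *P* = 0.035). The pathogenesis-related locus with the most counts, also on 5BL (5BL contig 10814320, 4684 to 5528), overlapped widely (log2 fold change -0.01, edgeR adjusted *P* = 0.995). Of 21 disease resistance proteins and receptor-like kinases none was DE (median -0.05), and the 2 kinases with the most counts had log2 fold changes of -0.28 on 3B and -0.51 on 4AL. The vacuolar proton pumps, which drive transport across the vacuole membrane, had a median of 0.05 over 9 loci, none DE, with 0.26 on 7AL and 0.08 on 7BS for the loci with the most counts. The part of these lists in the results above was not tested.

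The same step was compared with that in the mutants. The 4-test rule called 378 of 71492 loci in WT, none of 69628 in *gpc-A1* and none of 69841 in *gpc-A1/gpc-B2*. DESeq2 alone called 5433 in WT (7.6%), 1522 in *gpc-A1* (2.19%) and 130 in *gpc-A1/gpc-B2* (0.186%), and edgeR gave an unadjusted *P* under 0.05 at 19296, 13125 and 4414 loci. These counts do not test a difference between genotypes. The interaction of genotype and time, WT minus mutant, passed at none of 73374 loci for *gpc-A1* (edgeR lowest adjusted *P* = 0.197, 4256 loci with an unadjusted *P* under 0.05, 8 by DESeq2) and at none of 73683 for *gpc-A1/gpc-B2* (edgeR lowest adjusted *P* = 0.0854, 7098 loci, 74 by DESeq2).

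The loci DE in WT were chosen on the WT change, so their change in the mutants is given as a description. Of the 116 WT rises, 114 had a positive log2 fold change in *gpc-A1* (median 1.32) and 108 in *gpc-A1/gpc-B2* (median 0.47), beside 51.3% and 48.2% of all tested loci. Of the 262 WT falls, 257 were negative in *gpc-A1* (median -0.99) and 239 in *gpc-A1/gpc-B2* (median -0.30), beside 48.7% and 51.8% of all tested loci. Among the lists, the light-harvesting median was -1.67 in WT, -1.30 in *gpc-A1* and -0.68 in *gpc-A1/gpc-B2*. Chlorophyll synthesis had medians of -1.66 in WT, -0.79 in *gpc-A1* and -0.54 in *gpc-A1/gpc-B2*. For the Rubisco small subunit they were -1.37 in WT, -0.84 in *gpc-A1* and -0.14 in *gpc-A1/gpc-B2*. The vacuolar and secreted proteases had 1.12 in WT, 0.81 in *gpc-A1* and 0.61 in *gpc-A1/gpc-B2*. Locus by locus, WT minus *gpc-A1* had a median of only 0.04 in this protease list and was negative at 6 of 15. WT minus *gpc-A1/gpc-B2* had a median of 0.42 there and was negative at 3. *TaHMA2* on 7AL had log2 fold changes of 1.70 in WT, 1.25 in *gpc-A1* and 0.37 in *gpc-A1/gpc-B2*, and GS1b had 1.36 in WT, 1.11 in *gpc-A1* and 0.65 in *gpc-A1/gpc-B2*. Means at 12 DAA differed too, which was not tested. From 12 to 22 DAA GS1b went from 2509 to 6460 in WT, 3595 to 7717 in *gpc-A1* and 4803 to 7629 in *gpc-A1/gpc-B2*. GS1b was thus higher in both mutants at both times, despite its smaller fold changes. In the same order *TaHMA2* on 7AL went from 385 to 1259, 418 to 991 and 665 to 865. CP24 on 2BL went from 18271.5 to 3928, 17118 to 6941 and 9865 to 5890. No locus of these passed the interaction test. The pathogenesis-related list had medians of -0.01 in WT, 1.44 in *gpc-A1* and -0.12 in *gpc-A1/gpc-B2*. Heat shock proteins and chaperones had -0.11 in WT, 0.05 in *gpc-A1* and -0.27 in *gpc-A1/gpc-B2*.

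**Figure D5:**
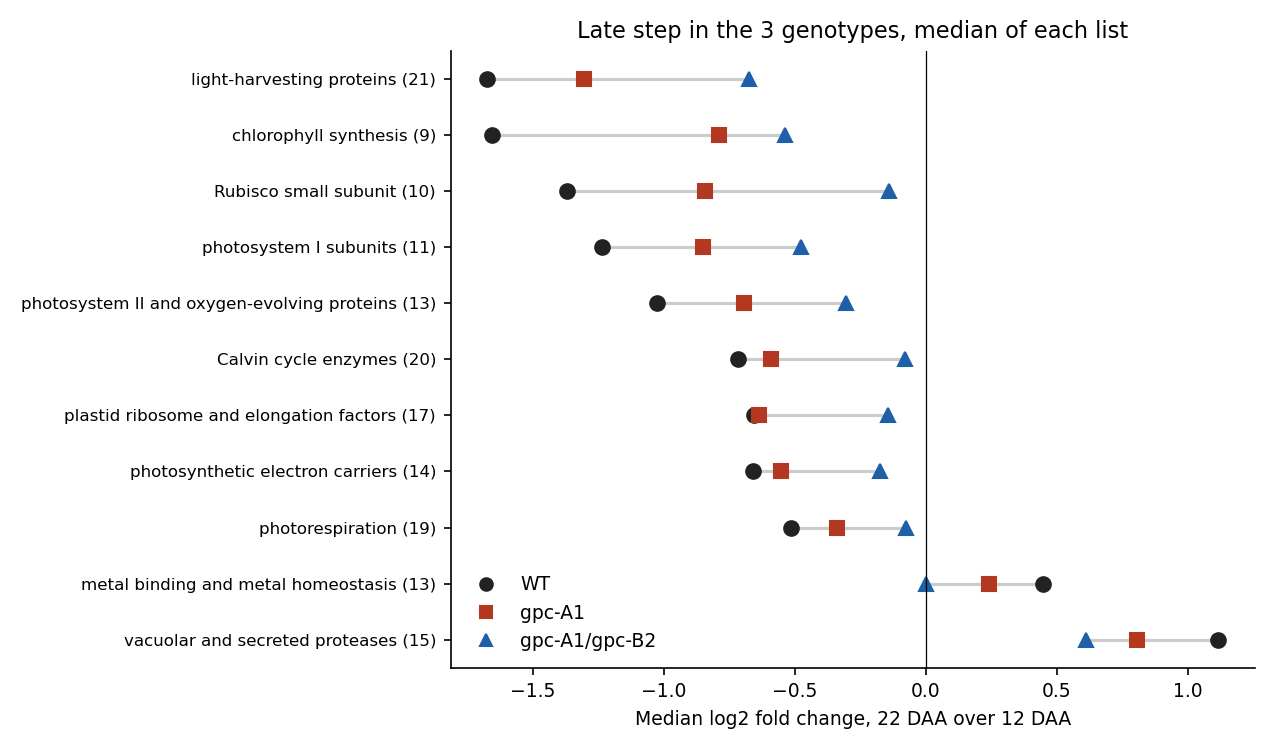
Median log2 fold change (22 DAA over 12 DAA) of 11 function lists in WT (circles), *gpc-A1* (squares) and *gpc-A1/gpc-B2* (triangles), with the number of loci in brackets. The light-harvesting median is -1.67 in WT, -1.30 in *gpc-A1* and -0.68 in *gpc-A1/gpc-B2*, and the double mutant lies nearer to 0 than WT in each photosynthesis list.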

How the data were processed

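Single reads of 50 bp from 36 flag leaf libraries had been aligned by the authors, using GSNAP, against contigs of both genomes from the International Wheat Genome Sequencing Consortium's Chinese Spring assembly, and uniquely mapped reads were counted per locus with HTSeq. The deposited values were raw read counts for 80168 loci, not normalized, and coordinates are those of the contigs. Reads shared by near-identical homoeologs or paralogs were lost at that step, so such loci are undercounted. No sequence of these contigs was used here.

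The 8 WT libraries of 22 and 12 DAA were fitted over the loci kept (over 3 reads in 2 or more libraries of a group). DE required edgeR 4.0.16 (quasi-likelihood test, TMM, R 4.3.3) and DESeq2 1.42.0 (Wald test) each with an adjusted *P* of 0.01 or less over all loci, a Mann-Whitney-Wilcoxon *P* of 0.05 or less and a *P* of 0.01 or less in the *t*-test of the methods, taken in its unequal-variance form. The last pair of tests used normalized counts (median-of-ratios scaling). The Mann-Whitney-Wilcoxon *P* came from a normal approximation without continuity correction, which gives 0.0209 for 4 against 4 libraries without overlap. Its exact form was not run. DESeq2 stood in for the earlier version named in the methods. Fold changes and standard errors are those of edgeR. The scripts were tested on simulated data. The *GPC* loci were compared by exact permutation tests (scipy 1.17.1).

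The loci named are the 2 *GPC* loci, in each list the 2 with the most counts and the DE one with the largest change, the metal loci that were DE and the 6 others with the largest changes above a mean of 50, and the largest DE rises and falls over all loci and over described loci. Any other locus was chosen after its values were seen. The comparison, the lists and the alternatives were chosen with earlier results of these data known.

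Per the methods, libraries of 1 replicate number were pooled and sequenced together in the same lanes, so the numbers pair the samples. Deviations from the group means of same-numbered libraries of 22 and 12 DAA had correlations of 0.135, 0.048, 0.098 and 0.088 over 35680 loci for replicates 1 to 4, and those of the 12 differently numbered pairs ran from -0.250 to 0.231, so the correlations do not set the same numbers apart. Library totals were 18335083 counts or more. Alternatives were the normalization, the filters, each test, a fit of all 9 groups, the replicate block and leaving out each replicate or library.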

Additional observations from a re-analysis of the deposited data

Results flagged for a closer look

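In 188 groups of 4 libraries made of the named loci and list sums, 10 had a highest or lowest library set far apart from the other 3 by Dixon's test, and about 1 in 20 groups (9.4 of 188) is marked by chance. Of the 10, replicate 2 of 12 DAA was the library apart in 7, replicate 2 of 22 DAA in 2 and replicate 4 of 22 DAA in 1. The value given first for each is the gap to the nearest other library as a share of the group's range.

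Replicate 2 of 12 DAA was high at the 6AS contig 4397602 locus described as *NAM-B1* (0.907, 6865 normalized counts against 4436 to 4663 in the other 3), at the pheophorbide a oxygenase-like 4BL contig 6887705 (0.845, 7219.5 against 6178 to 6339.6), at fructan 1-exohydrolase on 6AS contig 4429358 (0.892, 5591 against 3224 to 3480.0), at TaHMA2 7BL (0.896, 549 against 363 to 382) and at TaNRAMP2 4BL (0.836, 1363 against 657 to 773). It was also high in the sum of vacuolar and secreted proteases (0.835, 179912 against 117496 to 127810.0). It was low at 1BL contig 3886145 (0.872, 465 against 715 to 751). These 7 values lie on the side of the 22 DAA libraries.

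Replicate 2 of 22 DAA was high at TaNRAMP2 4AS (0.945, 7213 against 3062 to 3292) and at the hypersensitive response protein on 4BL contig 6973512 (0.912, 10153 against 7196 to 7456). Replicate 4 of 22 DAA was low in the sum of heat shock proteins and chaperones (0.839, 257721 against 315888 to 327089), and its 12 DAA namesake was the lowest of its own group.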

How the results depend on the processing

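Of 1752 log2 fold changes of the 73 named loci under 24 alternatives, all but 13 kept their direction. Some alternatives changed only which tests a call needed and reused the same fold changes, so there the direction could not turn. They were edgeR alone, DESeq2 alone, the *t*-test on log2 values, the pooled-variance *t*-test and no *t*-test. The number of DE loci in WT stayed within 1.5 times of 378 with other scaling factors in edgeR (372), other filters (420 and 384), edgeR alone (541), the *t*-test on log2 values (528), all 9 groups in 1 fit (351, of which 186 were among the 378) and the replicate block (268, of which 207 were among the 378). It was 2021 (484 higher, 1537 lower) with edgeR's exact test and 5433 with DESeq2 alone. Leaving out a replicate number from both groups gave 0 to 108, and leaving out 1 library gave 0 to 474. Without replicate 1 and without replicate 3 of both groups edgeR called none, with 15590 and 15660 loci at an unadjusted *P* under 0.05, while DESeq2 called 2764 and 2590, and 323 and 279 of the 378 loci kept an edgeR adjusted *P* of 0.05 or less, all with their sign. Alternatives chosen after seeing the data were the pooled-variance *t*-test (494), no *t*-test (538, 45.4% higher, as 45.5% with the *t*-test on log2 values) and 12 DAA replicate 4 thinned to 20956703 reads (405). Of the 73 named loci 23 were DE, against 35 with the exact test, 52 with DESeq2 alone, 21 with the replicate block (4AL contig 7131986 and 2AL contig 6363708 lost the call) and 0 to 16 with a replicate or library left out. The block changed no other call of a named locus.

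In *gpc-A1* DESeq2 alone called 1522 loci, and leaving out each replicate number gave 0 to 1 DE loci. In *gpc-A1/gpc-B2* DESeq2 alone called 130, and the replicate number left out made no difference to the count of 0. With the replicate block both counts were 0. For the interaction DESeq2 called 8 loci for *gpc-A1* and 74 for *gpc-A1/gpc-B2*, and leaving out each replicate number gave 0 to 2 and 0 to 15, the highest without replicate 4 in both. The *GPC-A2* difference of 161 normalized counts ranged from 143.7 to 190.9 with a library left out, and the exact permutation *P* was 0.0571 without any 1 of the 12 DAA libraries and 0.0286 without any 1 of the 22 DAA libraries. Permuting within replicate numbers, added after seeing the data, left 161 with an exact permutation *P* of 0.125. The difference of the 6AS locus, 977, ranged from 742 to 1552, the highest without 12 DAA replicate 2 (exact permutation *P* = 0.0286).

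Only 3 named loci turned their sign, all near 0. The pathogenesis-related locus on 5BL contig 10814320 had 0.00048 with the other scaling factors and -0.48 to 0.58 with a replicate or library left out, FtsH on 7AL contig 4555942 had -0.10 to 0.17 and the proton pump on 7BS contig 3153065 had -0.072 to 0.19. The cause was not tested. Loci under 50 counts, such as *TaZIFL1* on 3B, rest on few reads.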

Other observations

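Outside the lists, 475 described loci were tested, and 39 of them had an edgeR adjusted *P* of 0.05 or less and at least a 2-fold change, 11 higher and 28 lower, beside 2.69% and 1.79% of all loci, with 7 DE, beside 0.529%. These 39 were picked by their values. Phosphoethanolamine methyltransferase, which makes the head group of phosphatidylcholine, was lower at 2 loci, with log2 fold changes of -2.76 on 1AL (contig 3957201) and -2.21 on 1BL (contig 3791635). A leucine zipper protein zip1 was lower on 3B (contig 10438224, -1.24) and on 3AS (contig 3334610, -1.23), and an alternative oxidase, the non-phosphorylating oxidase of plant mitochondria, on 6AL (contig 5832763, -1.48).

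The higher ones included an auxin-repressed protein on 4AL (contig 7066394), with 3468, 19779, 3058 and 16764 normalized counts at 22 DAA, against 1043, 2060.3, 1027 and 2307 at 12 DAA. Replicates 2 and 4 of 22 DAA were far above the other libraries. The same libraries were high at a locus on 7AS (contig 4214385) described as a chloroplast alpha-glucan water enzyme, with the rest of the name cut off. It had 3027, 11299.7, 2851 and 14494 normalized counts at 22 DAA, against 2059, 3195, 1654 and 2059.6 at 12 DAA.

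Of 41 loci with a mean of at least 50 normalized counts and at least a 16-fold change, 31 were higher and 10 lower at 22 DAA. They were picked by the size of that change, which favours groups that do not overlap. Of the 31, 13 had no overlap and 1 was DE, beside 8.7% and 0.162% of all loci. Of the 10, 10 had no overlap and 2 were DE, beside 8.89% and 0.366% of all loci. One of the 31 that overlapped, a thioredoxin h-type locus on 1BL (contig 3850705), was high in replicates 1 and 3 of 22 DAA and in 3 of the 4 libraries of HD. It had 5477, 1.97, 5974 and 3.20 normalized counts at 22 DAA, against 4.58, 3.13, 11.9 and 7.99 at 12 DAA (edgeR adjusted *P* = 0.0346), and 6422, 5772, 9.87 and 5019 at HD.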
